A study of Caenorhabditis elegans with 6 samples.

Results

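The miRNAs of wild-type worms were compared between each of 2 spaceflight conditions and a ground control, and the question was which of them differed from ground alike in both flights. The worms were Caenorhabditis elegans of the strain N2, the laboratory wild type. Worm miRNA probes were taken from the spot table that holds the N2 arrays, and the median of the 4 spots of a probe was its level. A probe was kept when it exceeded, on at least 1 of the 3 N2 arrays, the 95th percentile of the spike_control spots of that array, called the limit below. This kept 39 of 156 worm miRNA probes, and 21 of them exceeded the limit on all 3 arrays. The N2 arrays are 3 of the 6 arrays of the series.

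The first flight group, N2 in static flight, lay in a static slot of the spacecraft at a measured radiation dose of 1.92 mGy, with gravity peaks of up to 0.01 g. The second flight group, N2 in the 1 g centrifuge, received 2.27 mGy at 1 g. The N2 ground group lay in a static slot on Earth, in a run that started 2 days later. In all 3 groups about 100000 dauer larvae, the arrested and stress-resistant stage, were loaded on fresh agar medium, kept at 23 °C for 16.5 days and collected 7 h after the end. The labels do not state the developmental stage at collection. Each group is a single array of 1 µg of total RNA labelled with the dye Hy3, with no second culture. No test between groups is therefore possible, no p-value is given, and each difference has no replicate check. The errors below come from the 4 spots of an array and cover spot-to-spot error only. Spots under the limit were set to it first, so an array with all its spots under the limit adds no spread. The error of a difference against such an array reflects the other array alone and is too small.

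A miRNA is a short RNA that pairs with messenger RNAs, mainly through a stretch near its 5′ end called the seed, and lowers their output. In worms the first known miRNAs, lin-4 and let-7, time the larval stages, and others act in single tissues: lsy-6 in a taste neuron, miR-1 in muscle, miR-35 to miR-42 in the embryo. Families that share a seed can stand in for each other, as in the miR-58/bantam and miR-51 families. miR-71 is known for its part in lifespan and in survival of arrested larvae.

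Levels on the N2 arrays were low. The limit was 14 intensity units on the static array, 20 on the centrifuge array and 13.25 on the ground array. The kept miRNAs reached at most 505 (miR-257) in static flight, 479 (let-7-5p) in centrifuge flight and 367 (let-7-5p) on the ground. The spots named Hy3 had medians of 602, 642 and 682.5 units in static flight, in centrifuge flight and on the ground. Several miRNAs that are abundant in whole worms lay under the limit on all 3 arrays. The muscle miRNA miR-1-3p read 6 and -49 units in static and centrifuge flight and -9.5 on the ground. miR-60-3p, a miRNA of the intestine, read -138.5 and 0.5 in the flights and -20 on the ground. miR-58-3p read 3.5 and 8 against -1.5, and miR-71-5p 1 and -8.5 against -5, in the same order. Of the 8 members of the embryonic miR-35 family, miR-38-3p alone was kept. None was kept of the 3 members of the miR-44 family or the 5 of the cluster of miR-63 to miR-66 and miR-229. Of 40 late-numbered miRNAs on the array 13 were kept.

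Kept miRNAs just inside the limit were miR-1018 (16 units on the ground), miR-354 (23 in centrifuge flight) and miR-360-3p (15.5 in static flight). Just outside lay miR-1833 (16.5) and miR-1821 (16) in centrifuge flight and miR-260 (10.5) on the ground. The rule also fixes some directions. The 4 miRNAs above the limit on the ground array alone could only be lower in flight, and the 9 above it on 1 or both flight arrays and not on the ground could only be higher. For comparison between arrays, each array was scaled to the median of the 21 shared miRNAs, by multipliers of 1.18 (static), 0.763 (centrifuge) and 1.11 (ground). A value under the limit was set to the scaled limit of its array, and a fold against it is given as "at least", a bound for this scaling and these spots only.

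**Figure D1:**
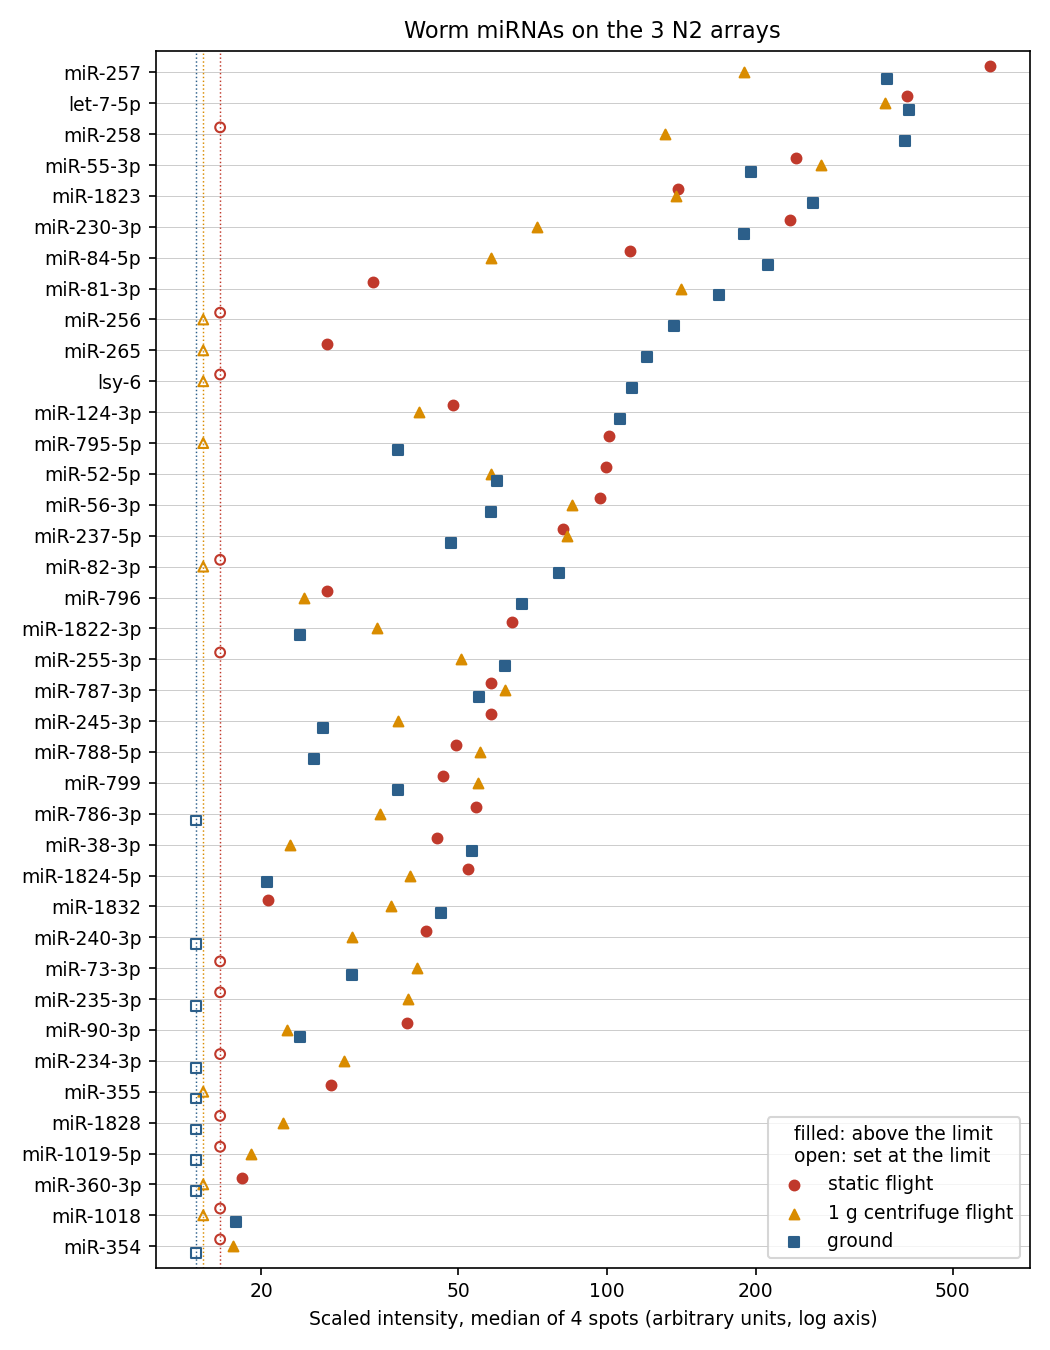
Scaled intensity of the 39 kept worm miRNAs (rows) on the N2 static flight, 1 g centrifuge flight and ground arrays, each the median of 4 spots, on a log axis; filled marks lie above the array's limit, open marks were set to it, and dotted lines are the limits. The brightest marks on the static array are miR-257 (595) and let-7-5p (404), against 369 and 408 on the ground, and miR-256, lsy-6 and miR-82-3p are above the limit on the ground array alone.

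In static flight 6 kept miRNAs were at least 2-fold higher than on the ground and 10 were lower, of 39. In the centrifuge 4 were higher and 11 lower. Over all 712 probes kept by the same rule, of which 673 have no name in the table, 11.1% were higher and 29.6% lower in static flight, and 6.18% were higher and 35.5% lower in the centrifuge. The median log2 difference of the kept worm miRNAs was 0.19 in static flight and -0.09 in the centrifuge, beside -0.41 and -0.52 over all 712 probes. A total of 9 worm miRNAs differed at least 2-fold alike in both flights. The 7 lower ones were lsy-6, miR-124-3p, miR-256, miR-258, miR-265, miR-796 and miR-82-3p, and the 2 higher ones were miR-240-3p and miR-786-3p. Over all 712 probes 24.9% were lower in both flights and 3.09% higher, and the worm miRNAs, at 17.9% and 5.13%, lie near that background. Both flights are set against the same ground array, so a value particular to that array would appear in both. Of the 9, 5 were kept only through the side on which they are high. Among the 21 miRNAs above the limit on all 3 arrays 2 (9.52%) were lower alike (miR-124-3p and miR-796) and 0 higher. Of the 365 unnamed probes above the limit on all 3 arrays, 30.7% were lower and 2.19% higher in both flights.

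**Figure D2:**
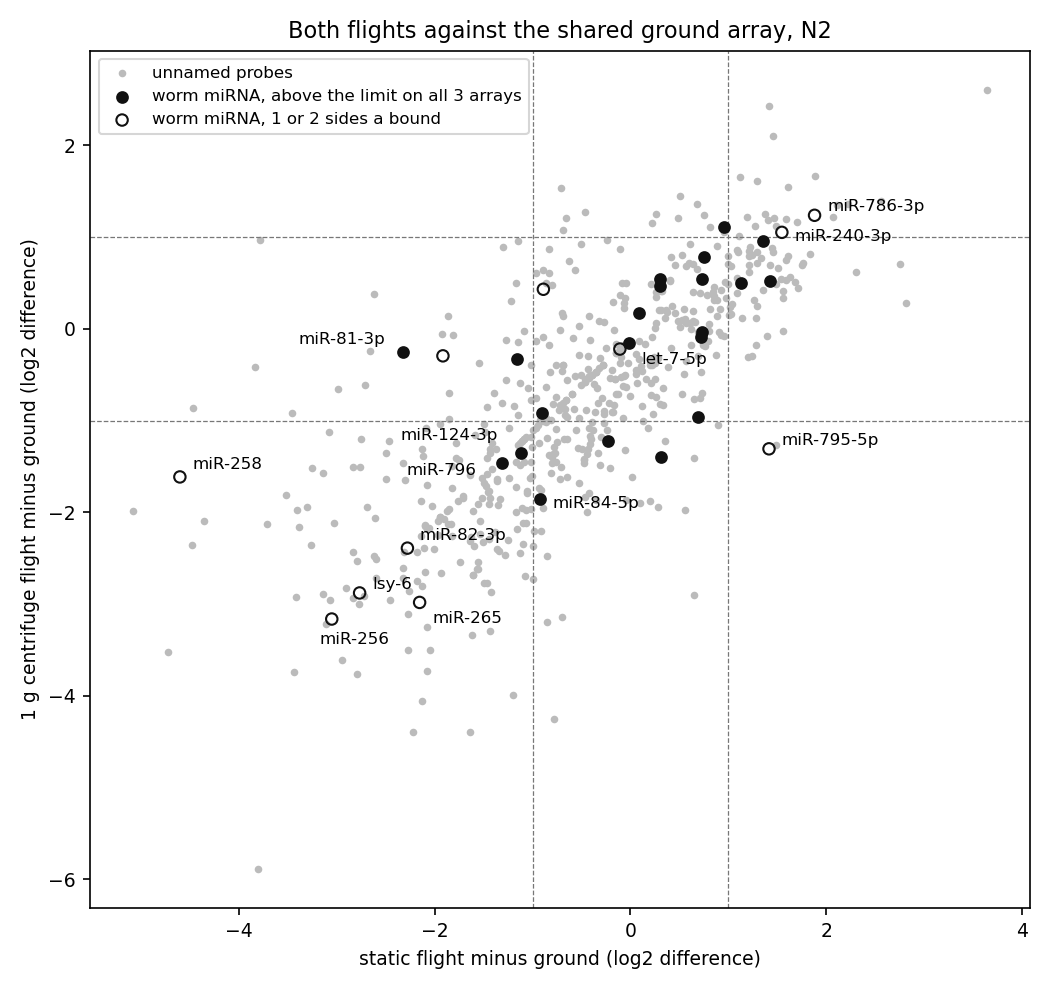
log2 difference from ground in static flight (horizontal) and in the 1 g centrifuge (vertical) for the kept worm miRNAs with a value in both (black; open where a side is a bound) and for unnamed probes (grey); dashed lines mark 2-fold. The 7 miRNAs lower in both flights sit at the lower left, miR-240-3p and miR-786-3p at the upper right, and miR-795-5p has opposite signs; unnamed probes fill the same lower left region.

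The neuronal miRNAs lsy-6 and miR-124-3p were lower in both flights. lsy-6 sets the left-right asymmetry of a pair of taste neurons by repressing a transcription factor gene, cog-1. Its 4 spots read 13, 15, 10 and -41 units in static flight and -1248, 8, 17 and 15 in the centrifuge, against 86, 97, 105 and 156 on the ground. Every ground spot thus lay above every flight spot. lsy-6 was at least 6.80-fold lower in static flight (log2 -2.77, technical SE 0.19) and at least 7.36-fold lower in the centrifuge (-2.88, technical SE 0.19). miR-124-3p, a miRNA of sensory neurons whose sequence is conserved in vertebrates, read 41, 48, 42 and -264 in static flight and -20, 154, 55 and 54 in the centrifuge, against 13, 83, 108 and 152 on the ground. Its spots overlapped between each flight and ground. Its scaled level was 48.9 in static flight and 41.6 in the centrifuge, against 106 on the ground, a log2 difference of -1.12 (technical SE 0.89) and -1.35 (technical SE 0.99). With no scaling the centrifuge difference of miR-124-3p was -0.81. The other neuronal miRNAs of the list, miR-791-3p and miR-273, were under the limit on all 3 arrays. In RNA of whole animals, fewer cells of a type and less RNA per cell cannot be told apart. On the ground array lsy-6 read 101 units, while several miRNAs that are abundant in whole worms lay under the limit. Whether the lsy-6 and miR-124-3p probes read only these miRNAs was not tested. An effect of the arrays on these probes was not tested either.

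The miR-58/bantam family is a group of abundant miRNAs with a shared seed, and 2 of its 4 members on the array were kept. miR-82-3p read 8, 8, -527 and 21 units in static flight and 14, 14, 18 and -7 in the centrifuge, against 29, 80, 64 and 98 on the ground. No ground spot of miR-82-3p fell into the range of a flight. It was at least 4.85-fold lower in static flight (log2 -2.28, technical SE 0.41) and at least 5.25-fold lower in the centrifuge (-2.39, technical SE 0.38). miR-81-3p, whose gene neighbours that of miR-82 within 10 kb, differed between the flights. Its scaled level was 33.6 in static flight and 141 in the centrifuge, against 168 on the ground, or -2.33 (technical SE 1.42) and -0.25 (technical SE 1.36). The miR-81-3p spots overlapped in both comparisons. Its static difference came to -0.48 when spots of high local background were left out, and to 0.75 when the 4 spots were averaged.

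Of the run of early predicted miRNAs from miR-256 to miR-269, 4 of 13 were kept and 3 were lower in both flights, where 24.9% of all 712 kept probes were lower. Of these 3, miR-256 was kept through the ground array alone, on which it is high. miR-256 read 20, 0, 15 and -17 units in static flight and 5, 7, 10 and 4 in the centrifuge, against 42, 120, 143 and 126 on the ground. All of its ground spots lay above all of its flight spots. miR-256 was at least 8.28-fold lower in static flight (log2 -3.05, technical SE 0.43) and at least 8.96-fold lower in the centrifuge (-3.16, technical SE 0.41).

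miR-265 read 32, 36, 14 and -4 units in static flight and -35, -105, 30 and 17 in the centrifuge, against 1, 117, 100 and 230 on the ground. The ground spot of 1 unit overlapped the flight spots. Its difference was -2.15 (technical SE 0.96) in static flight, and it was at least 7.91-fold lower in the centrifuge (-2.98, technical SE 0.90). miR-258 read -99, 68, -760 and 132 units in static flight and 96, 179, 164 and 209 in the centrifuge, against 327, 394, 540 and -195 on the ground. Apart from the ground spot below 0, all ground spots of miR-258 exceeded all flight spots. It was at least 24.3-fold lower in static flight (-4.60, technical SE 1.49), and its centrifuge difference was -1.61 (technical SE 1.27). The static spots of miR-258 at -99 and -760 had local backgrounds of 284 and 955, and its ground spot of -195 one of 716. With all spots of high local background left out, on every array, and limits and scaling computed anew, the static difference was -1.84. miR-257, the brightest of the 4, was not alike: it read 595 scaled in static flight and 190 in the centrifuge, against 369 on the ground (0.69, technical SE 1.37, and -0.96, technical SE 1.35).

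The remaining lower miRNA, miR-796, for which no role is stated here, was above the limit on all 3 arrays. It read 18, 0, 36 and 28 units in static flight and 24, 45, 14 and 40 in the centrifuge, against 65, 51, 79 and 56 on the ground. Its lowest ground spot exceeded its highest spot in either flight. The differences of miR-796 were -1.31 (technical SE 0.34) and -1.46 (technical SE 0.31), and the centrifuge one was -0.92 with no scaling. All 4 spots of both flights lay under all 4 ground spots, after scaling, for 4 of the 39 kept miRNAs (lsy-6, miR-256, miR-796 and miR-82-3p), beside 11.4% of all 712 probes. They lay above for 0 of 39, beside 0.702%.

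The miRNAs higher in both flights, miR-240-3p and miR-786-3p, come from genes that neighbour each other within 10 kb, 1 of 3 such pairs of neighbours among the kept miRNAs. miR-786 is known for setting the rhythm of defecation in the intestine. miR-786-3p read 45, 47, -827 and 65 units in static flight and 42, 55, 40 and 49 in the centrifuge, against 12, 12, -2501 and 13 on the ground. The static and ground spots below 0 had local backgrounds of 1026 and 2795, and the other flight spots all exceeded the ground spots. The level of miR-786-3p exceeded ground by at least 3.68-fold in static flight (log2 1.88, technical SE 0.49) and by at least 2.36-fold in the centrifuge (1.24, technical SE 0.11).

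miR-240-3p read 49, 31, 42 and -419 units in static flight and 64, 46, 34 and 23 in the centrifuge, against 7, 10, 8 and 19 on the ground. Its static spot of -419, at a local background of 596, was the 1 flight spot of miR-240-3p under the ground spots before scaling. After scaling, its lowest centrifuge spot also overlapped the ground spots. The level exceeded ground by at least 2.92-fold in static flight (1.55, technical SE 0.42) and by at least 2.07-fold in the centrifuge (1.05, technical SE 0.34). Scaled to the 75th percentile of all non-control probes, the centrifuge difference of miR-240-3p was 0.92. The other 2 neighbouring pairs were miR-55 with miR-56 and miR-81 with miR-82. With the limit at the 99th percentile of the control spots, or a floor of 50 units, neither miR-240-3p nor miR-786-3p reached 2-fold in both flights.

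**Figure D3:**
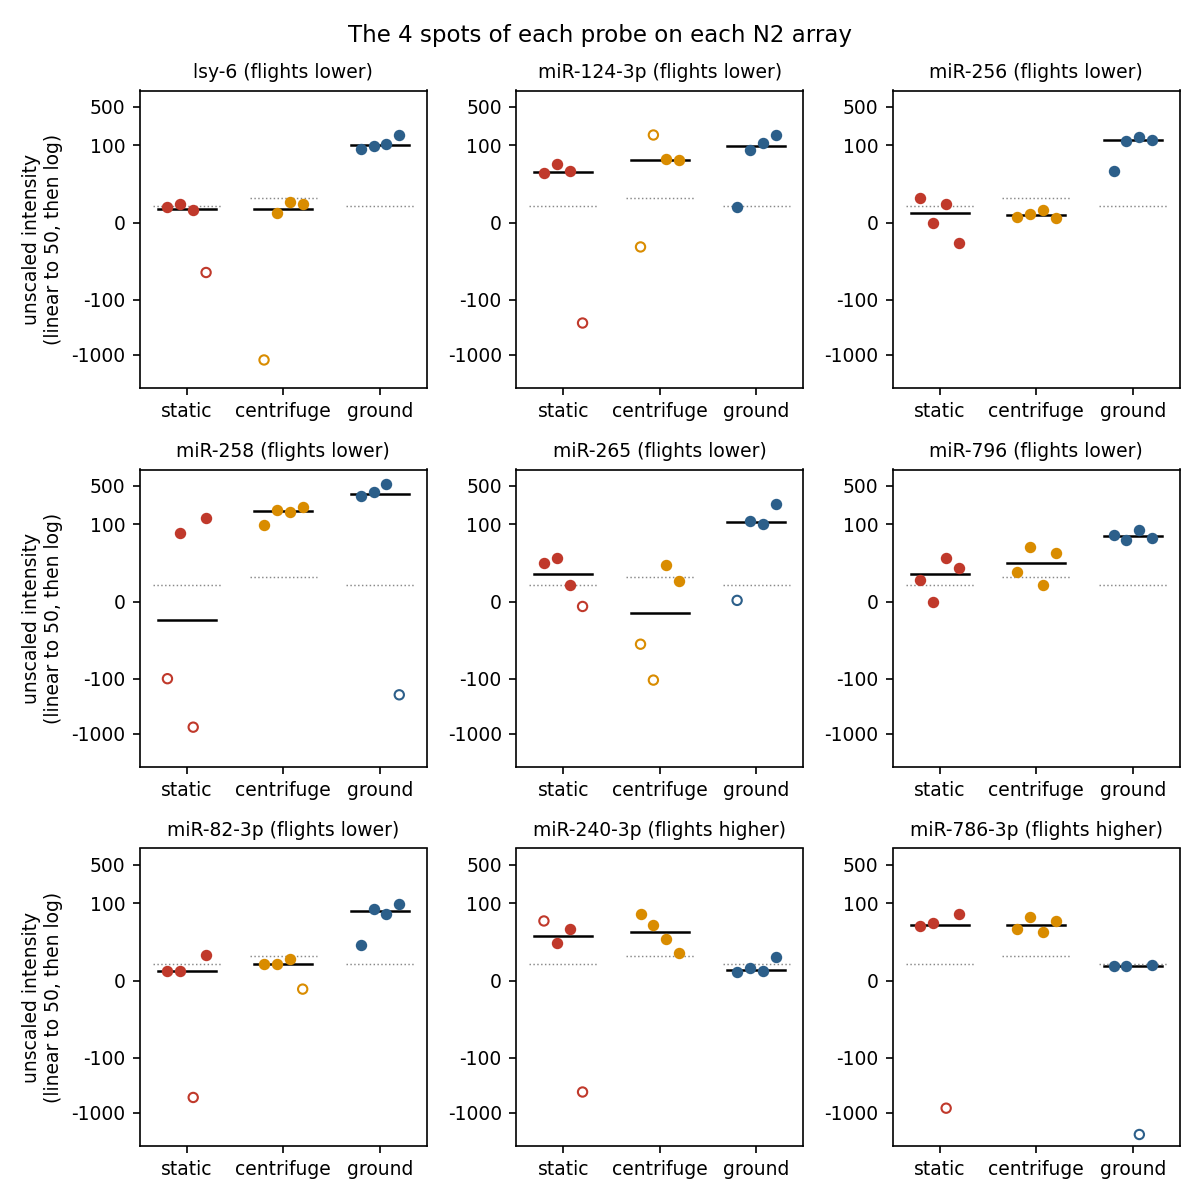
Unscaled intensity of the 4 spots of each probe on the N2 static flight, 1 g centrifuge flight and ground arrays for the 9 miRNAs alike in both flights, on an axis that is linear up to 50 and logarithmic beyond; black bars are medians, dotted lines the limits, and open marks are spots with a local background over 2 times the array's median. Ground spots of lsy-6, miR-256, miR-796 and miR-82-3p lie above all flight spots, and most spots below 0 are open.

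Local background was uneven over the arrays, and its part in the differences was tested only by leaving spots out. A spot counted as high in background when its local background exceeded 2 times the array's median, that is 130 units in static flight, 102 in the centrifuge and 144 on the ground. This held for 29.5% of spots in static flight and 15.6% in the centrifuge, against 9.53% on the ground. In static flight 14 of 48 blocks had a median above that value, in the centrifuge 7, and on the ground 3. Of all 624 worm spots, 316 read below 0 in static flight and 134 in the centrifuge, against 399 on the ground. The spike_control spots had medians of -1, 5 and -8 units in the same order. Of the worm spots of high background, 185 of 202 in static flight and 85 of 94 in the centrifuge read below 0, against 62 of 63 on the ground. Most worm spots below 0 on the ground were thus not of high background. Leaving the spots of high background out was added after the data were seen. It kept 42 miRNAs, with 7 higher and 7 lower in both flights. The 7 lower ones were the same, and the higher ones then comprised miR-240-3p, miR-786-3p, miR-235-3p, miR-237-5p, miR-245-3p, miR-788-5p and miR-1824-5p. Among 724 unnamed probes kept in the same way, 7.32% were higher and 20.3% lower in both flights.

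**Figure D4:**
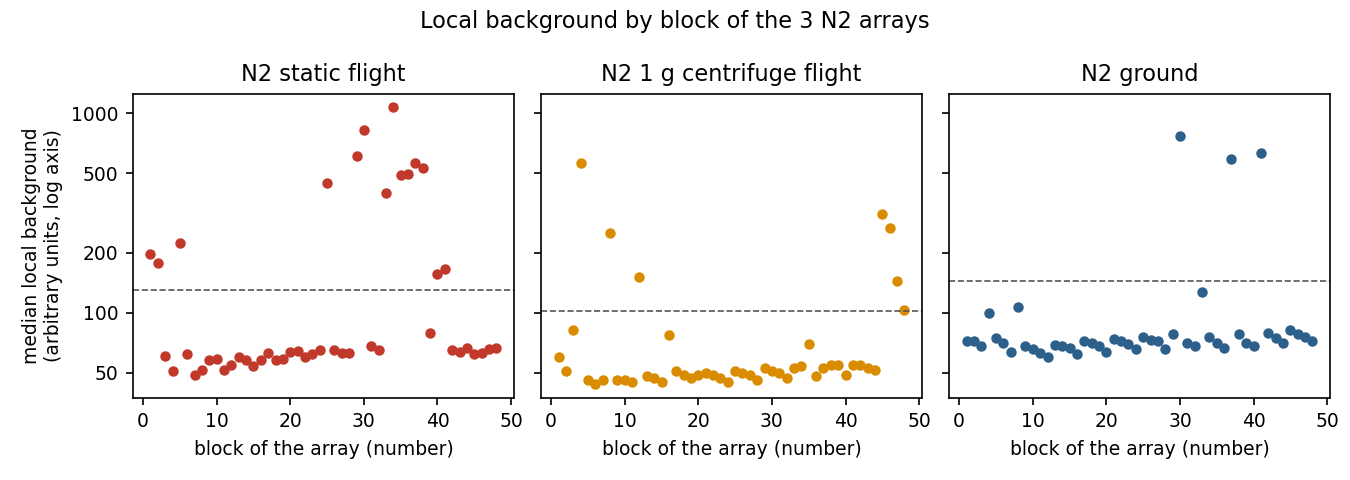
Median local background of each of the 48 blocks (horizontal, block number) on the N2 static flight, 1 g centrifuge flight and ground arrays, on a log axis; dashed lines are 2 times the array's median. On the static array 14 blocks lie above the line, with a highest value of 1070, against 7 on the centrifuge array and 3 on the ground array.

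Under the main setting no developmental timing miRNA differed 2-fold alike in both flights. let-7-5p, which drives the change from larva to adult, read 318, 368, 234 and 488 units in static flight and 173, 526, 445 and 513 in the centrifuge, against 243, 491, 826 and -1789 on the ground. Its scaled level was 404 in static flight and 365 in the centrifuge, against 408 on the ground (log2 -0.01, technical SE 1.35, and -0.16, technical SE 1.38). These errors are too wide to call it equal. Averaging the 4 spots instead put let-7-5p past 2-fold higher in both flights. That mean included the ground spot of -1789, at a local background of 2910. Without the spots of high local background, 3 of them static, let-7-5p differed by -0.28 in static flight and -0.30 in the centrifuge. miR-84-5p, a let-7 relative, read 111 and 58.4 scaled in the flights, against 212 on the ground. It differed by -0.93 (technical SE 1.03) in static flight and -1.86 (technical SE 0.72) in the centrifuge, which is past 2-fold in the centrifuge and not in static flight. With no scaling miR-84-5p came to -1.01 and -1.32, and it was lower alike in 5 of 18 other settings. miR-795-5p, of the same family, was higher in static flight and lower in the centrifuge, at 101 and under the limit, against 37.8 on the ground. The static difference was 1.42 (technical SE 0.86), and miR-795-5p was at least 2.48-fold lower in the centrifuge. That centrifuge difference was short of 2-fold with no scaling (-0.77) and without spots of high local background (-0.97). Of the 7 let-7 family members on the array 3 were kept and 0 were alike under the main setting.

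The lin-4 relative miR-237-5p read 81.4 scaled in static flight and 83.2 in the centrifuge, against 48.4 on the ground, or 0.75 (technical SE 0.81) and 0.78 (technical SE 0.67), with overlapping spots. Without the spots of high local background miR-237-5p came to 1.54 and 1.15, past 2-fold in both flights. lin-4-5p itself lay under the limit on all 3 arrays, at 1.5 and 7 units in the flights and -8.5 on the ground. In the miR-51 family, which acts in embryonic development, 3 of 6 members were kept and none reached 2-fold in a flight under the main scaling. miR-55-3p was at 242 and 271 scaled in the flights against 196 on the ground, and miR-56-3p at 96.7 and 85.1 against 58.4. miR-52-5p differed by 0.73 (technical SE 0.86) and -0.04 (technical SE 0.60). Without scaling, miR-55-3p and miR-56-3p came to 1.01 and 1.09 in the centrifuge. Without the spots of high local background, 3 of them static, miR-55-3p came to 1.04 in static flight. miR-38-3p, of the miR-35 family, read 45.4 and 22.9 against 53.4, or -0.23 (technical SE 0.49) and -1.22 (technical SE 0.39). Its centrifuge difference was -0.68 with no scaling and -0.85 without spots of high local background.

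miR-235-3p, which holds back cell division in starved larvae, was above the limit in the centrifuge alone and was the 1 kept of 8 miRNAs listed for ageing, stress and dauer. It read -134, 42, -259 and 52 units in static flight and 52, 109, 47 and 52 in the centrifuge, against -3, 7, 17 and -257 on the ground. Every centrifuge spot exceeded every ground spot, and the static spots split into a pair above and a pair below 0. miR-235-3p was at least 2.69-fold higher in the centrifuge (1.43, technical SE 0.30), and no static value can be given. The static spots at -134 and -259 had local backgrounds of 250 and 436. Without the spots of high background its scaled level was 53.3 in static flight and 44.6 in the centrifuge, against 7.20 on the ground.

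Under the main scaling the other miRNAs past 2-fold higher were so in 1 flight each. In static flight these were miR-1822-3p (log2 1.43, technical SE 0.33), miR-1824-5p (1.35, technical SE 0.31) and miR-245-3p (1.13, technical SE 0.57). In the centrifuge miR-788-5p differed by 1.11 (technical SE 0.64), and its static difference of 0.95 (technical SE 0.61) was just short. The centrifuge difference of miR-1824-5p, 0.96 (technical SE 0.52), was also just short. Of 18 other settings, miR-1824-5p was higher alike in 9, miR-245-3p and miR-788-5p in 7 each, and miR-1822-3p in 5. The static spots of miR-1822-3p, at 50, 48, 105 and 59 units, all exceeded its ground spots, at 21, 10, 26 and 22. The other miRNAs past 2-fold lower in static flight were miR-255-3p, at least 3.77-fold lower, and miR-1832 (-1.16, technical SE 0.36). In static flight 3 of the 4 spots of miR-255-3p had a high local background, and it differed by -0.30 in the centrifuge. Without the spots of high local background neither reached 2-fold in static flight, with miR-255-3p at -0.92 and miR-1832 at -0.43. The other miRNA past 2-fold lower in the centrifuge was miR-230-3p (-1.39, technical SE 1.02), at 72.1 scaled against 190 on the ground, beside 0.31 (technical SE 1.08) in static flight.

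miR-1823 was just short of 2-fold lower in both flights. Its scaled level was 139 in static flight and 138 in the centrifuge, against 261 on the ground, or -0.91 (technical SE 1.41) and -0.92 (technical SE 1.22). miR-90-3p, at 39.5 and 22.5 scaled in the flights against 23.9 on the ground, was within 2-fold in both. So were miR-787-3p, at 58.4 and 62.2 against 55.0, and miR-799, at 46.6 and 54.9 against 37.8. Without the spots of high local background miR-90-3p came to 1.07 in static flight, past 2-fold. miR-73-3p, the 1 kept of 3 members of the miR-72 family, was under the limit in static flight, where 3 of its spots had a high local background, and differed by 0.43 in the centrifuge. Its static difference was at most -0.89 with all spots and turned to 0.76 without those of high local background. The remaining 7 kept miRNAs (miR-234-3p, miR-354, miR-355, miR-360-3p, miR-1018, miR-1019-5p and miR-1828) were each above the limit on 1 array and within 2-fold of the limits of the others. The nearest to 2-fold was miR-234-3p, at least 1.99-fold higher in the centrifuge. Without the spots of high local background miR-234-3p came to at least 1.15 in the centrifuge. In the same way miR-354 came to at least 1.24 in static flight, where 3 of its spots were left out.

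The choice of scaling moved the balance of the alike miRNAs. There were 2 higher and 7 lower with the main scaling, 5 and 6 with none, 1 and 7 with the 75th percentile of all non-control probes, and 6 and 5 with the authors' normalized intensity. Quantile normalization gave 7 and 4, and scaling on the 8 worm probes at 50 units or more on all 6 arrays gave 6 and 4. The median centrifuge difference of the kept miRNAs was -0.09 with the main scaling and 0.48 with none, 0.81 on the 8 probes, 0.50 with quantile normalization, 0.49 on the authors' scale and -0.22 with the 75th percentile. The static median was 0.19, and 0.11, 0.43, 0.68, 0.28 and 0.23 in the same order, so differences are relative to these shifts. Within the centrifuge the 4 higher and 11 lower miRNAs became 13 and 6 with no scaling, 17 and 4 on the 8 probes, 13 and 5 with quantile normalization, 2 and 13 with the 75th percentile and 13 and 6 on the authors' scale. Within static flight the 6 and 10 became 14 and 7 with quantile normalization and 8 and 9 on the 8 probes. lsy-6, miR-256, miR-265 and miR-82-3p were lower in both flights, and miR-786-3p higher, under each of these 6 scalings. The limits were scaled with the values, so detection fixed the directions of lsy-6, miR-256, miR-82-3p and miR-786-3p. It also fixed that of miR-265 in the centrifuge. For these only the size of the difference could vary. Under normexp background correction with an offset of 50, 0 miRNAs reached 2-fold in either flight. There lsy-6 differed by -0.11 and -0.21. The offset is added to every spot, and such an addition shrinks fold differences at low levels. How much of the change under normexp came from the offset was not tested.

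**Figure D5:**
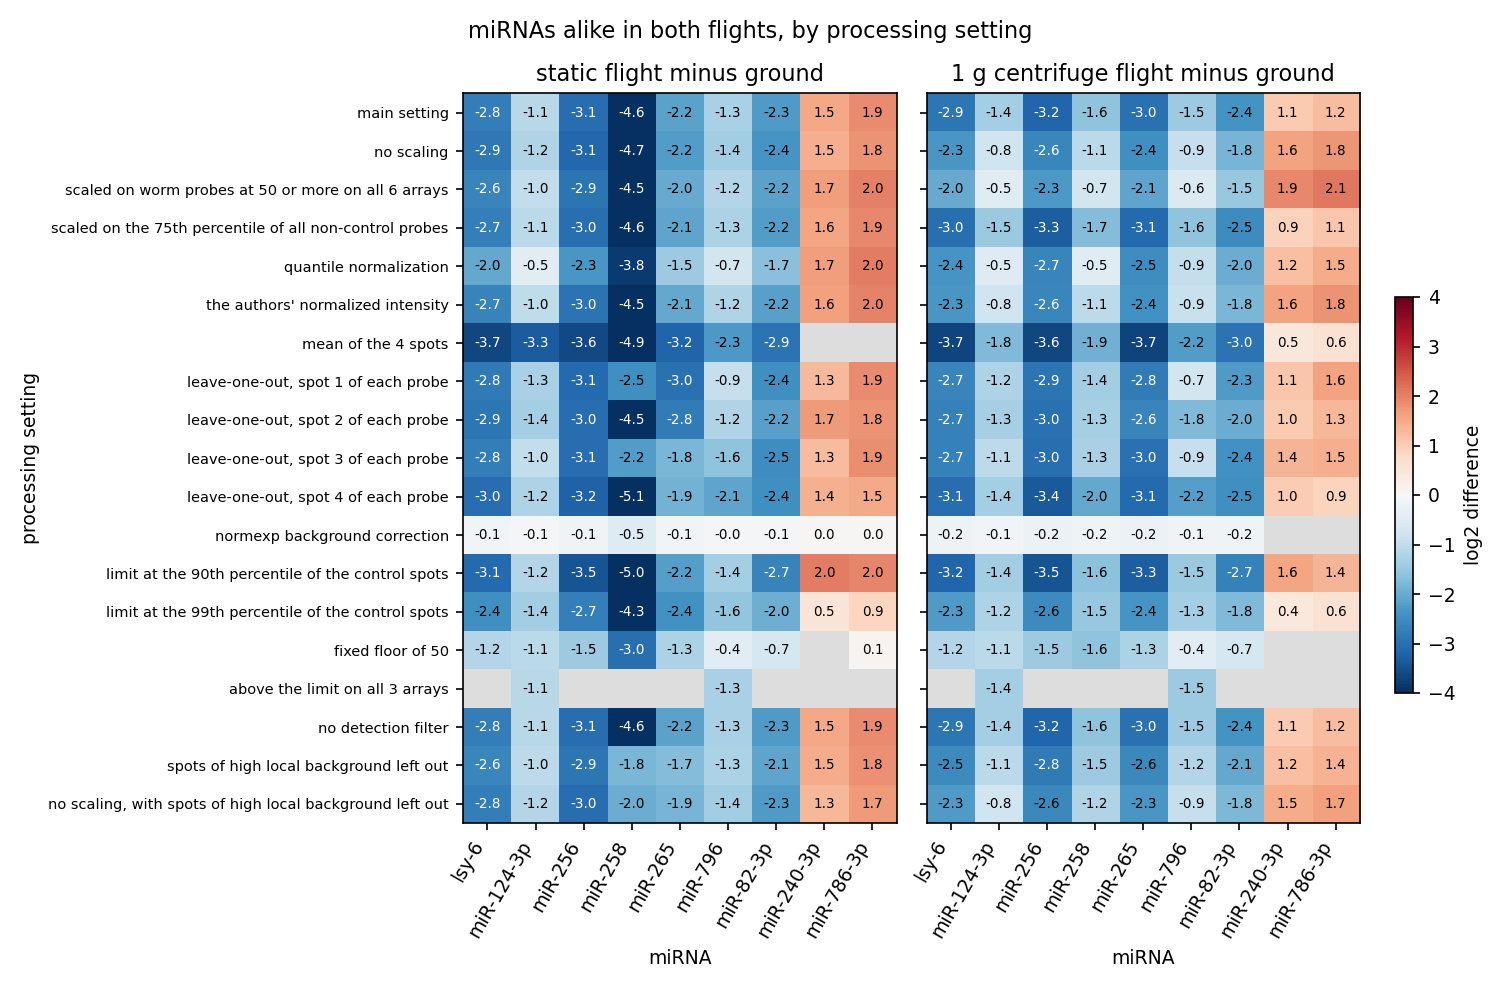
log2 difference from ground in static flight (left) and in the 1 g centrifuge (right) for the 9 alike miRNAs (columns) under the main setting and 18 others (rows); grey cells have no value. All 7 lower miRNAs stay below 0 and both higher ones above 0 wherever a value exists, and under normexp the value farthest from 0 is -0.50 (miR-258 in static flight). A bound was given a value only on its own side of 0, so the sign of a difference that is a bound could not turn.

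For the 9 alike miRNAs the arrays of the mutant labelled ced-1, which have a ground array of their own, gave few values to set beside these. The labels give this mutant's genotype as ced-1(n1995) but disagree on its strain, LS292 in the titles and MT4930 in the strain field. Of the 9, 7 gave no difference in either flight there: both sides lay under the limits, or the bound was under 1-fold. miR-82-3p was above the limit on all 3 mutant arrays, at 1402 units unscaled in static flight and 4717.5 in the centrifuge, against 3822.5 on the ground. Scaled in the same way, it differed there by -1.05 and -1.31, beside -2.28 and -2.39 in N2, and no test of the difference between strains is possible. The mutant centrifuge direction comes from the scaling, by 0.432 in the centrifuge and 1.33 on the ground, since the unscaled centrifuge level was above ground. miR-240-3p in the mutant read 86.5 unscaled in static flight and 107.5 in the centrifuge, against 160.5 on the ground.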

How the data were processed

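The members and lists were chosen with earlier results of these data known. Per the file headers, the deposited tables hold spot intensity values, raw and less the local background. The authors' expression table gives the latter per probe, equal to the median of the spots on 2314 of 2314 probes of each N2 array (tolerance 0.01). It also gives the authors' normalized intensity, a ratio to 1 value per array (84.5 static, 94.5 centrifuge, 95.5 ground) for which no source states the rule. The series value table was not used, since its column labels disagree with the sample names, nor were 12 further columns. Each array had 10080 spots, 476 of them spike_control spots.

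Levels, limits and bounds were computed in Python 3.11.15 with pandas 2.3.3 and checked on simulated spots. The simulated miRNAs lay above the limit and had no spots of high local background. That check therefore did not cover miRNAs near or under the limit. Normexp used limma 3.58.1. A technical SE combines the SDs of the 4 spots of both arrays, after scaling and setting values to the limit, on the log2 scale. "Called" means at least 2-fold. Given in full were all miRNAs alike in both flights, the 5 largest differences each way in each flight, and miRNAs above the limit on all 3 arrays. Of the 39 miRNAs 37 matched a gene symbol of the WBcel235 table, used for names and neighbours only; no sequence is printed. Alternatives covered scaling, spot summary, background, limit, filter and fold. The number of arrays limits the precision.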

Additional observations from a re-analysis of the deposited data

Results flagged for a closer look

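miR-795-5p, of the let-7 family, differed from ground in opposite directions in the 2 flights. Its log2 difference from the N2 ground array was 1.42 in static flight and at most -1.31 in the centrifuge, where it lay under the limit. The centrifuge value was short of 2-fold with no scaling (-0.77), on the authors' scale (-0.75), on the 8 probes shared by all 6 arrays (-0.44) and without spots of high local background (-0.97). The difference between flights was not tested, since each is 1 array. miR-240-3p differed from ground in opposite directions in the 2 strains in the centrifuge, at -2.20 in the mutant labelled ced-1 and at least 1.05 in N2. That difference was not tested either. The mutant ground value of miR-240-3p, 160.5 units, lay close to that array's limit of 150. The mutant centrifuge array was scaled by 0.432 and the mutant ground array by 1.33. Unscaled, the mutant centrifuge level was 107.5, lower than ground but short of 2-fold.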

How the results depend on the processing

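The counts of miRNAs past 2-fold were 16 in static flight, 15 in the centrifuge and 9 alike in both. With normexp and its offset of 50 they were 0, 0 and 0. With a floor of 50 they were 7, 7 and 5, and with miRNAs above the limit on all 3 arrays 7, 6 and 2. A 3-fold threshold gave 8, 6 and 5. A 1.5-fold threshold gave 26 in static flight and 14 alike. The mean of the 4 spots gave 17 alike (2 higher, 15 lower), and leaving out spots of high local background, added after the data were seen, gave 14. With the mean the 2 higher were let-7-5p and miR-230-3p. There miR-240-3p and miR-786-3p had no static value and came to 0.45 and 0.61 in the centrifuge. Leaving out 1 of the 4 spots of each probe gave 16 to 21 in static flight, 15 to 19 in the centrifuge and 10 to 13 alike. Under the other settings tried these counts stayed within 1.5 times. With the mean of the spots 4 differences past 2-fold turned sign: miR-81-3p (0.75), miR-795-5p (-1.94) and miR-245-3p (-1.45) in static flight and miR-230-3p (1.46) in the centrifuge. Each had, on an array compared, a spot far below 0 at a high local background. These spots read -1403 (miR-81-3p) and -548 (miR-230-3p) on the ground. In static flight they read -301 (miR-795-5p) and -275 (miR-245-3p). The cause of the turns was not tested. Under the 18 settings that give a difference, lsy-6, miR-256 and miR-265 were lower alike in 16, miR-82-3p in 15, miR-258 in 14, miR-124-3p in 11 and miR-796 in 9, and miR-240-3p and miR-786-3p higher alike in 12 each. Dropping the detection filter leaves the values of kept miRNAs unchanged, so its agreement was fixed. Of the 9, the setting above the limit on all 3 arrays could give values for miR-124-3p and miR-796 alone. No paired analysis was possible because each group is 1 array. Signal over background limits all values: 12 of the 39 miRNAs never reached 50 scaled units.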
